A study of Mus musculus with 2 samples.

Results

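H3K9me3 was described at the promoters of Zfp genes, which encode zinc finger proteins, in mouse haematopoietic stem and progenitor cells with and without the histone demethylases Kdm4a, Kdm4b and Kdm4c. The members were all regions whose gene symbol is Zfp followed by a number and at most 1 letter. They were 68 of the 1381 H3K4me3 regions in the deposited table and belonged to 62 of its 1296 genes. The rule used the gene symbol alone and no measured value, but the family was chosen with earlier results of these data known.

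The knockout group was 1 H3K9me3 ChIP-seq library of LSK cells (marrow cells that lack lineage markers and carry c-Kit and Sca-1) from conditional Kdm4a, b c triple knockout mice, and the control group was 1 library of LSK cells from WT control mice, all labelled C57BL6. All mice had been given tamoxifen, and LSK cells were sorted 2 weeks later. The sources used here give neither the number of animals per library nor the driver of the conditional deletion. Each group is a single library, so the spread between animals is unknown and no difference below carries a p-value. The table holds no region of Kdm4a, Kdm4b, Kdm4c or Kdm4d, so it cannot check the deletion. Regions were listed for 1 of 11 LSK marker genes (Ly6a, the gene of Sca-1, with 4 knockout reads and 1 control read) and for 0 of 14 markers of other marrow cells, and these values do not check the cell type.

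H3K9me3 marks silenced chromatin, and H3K4me3 marks active start sites. Many zinc finger proteins of this family carry a KRAB domain, which recruits Trim28 and the H3K9 methyltransferase Setdb1 to the DNA the fingers bind. The family therefore supplies much of the H3K9me3 that silences transposable elements. Genes of the family lie in large clusters of related copies, and the bodies of many of these genes carry H3K9me3 themselves. The KDM4 enzymes remove methyl groups from trimethylated H3K9.

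The table is a selection: its lowest knockout over control ratio is 2.01, no region has fewer than 1 control read or 3 knockout reads, and a gene without a listed region has no value here. Every Zfp region was therefore higher in the knockout library by construction, and only the size of the ratio, the read number, the position and the neighbourhood are described. Values are in RPM, reads scaled to library size, and 1 read is worth 0.0384 RPM in the knockout library (26061344 reads) and 0.0405 RPM in the control library (24673463 reads). Ratios are knockout RPM over control RPM, given with an exact (Clopper-Pearson) 95% counting interval. The interval covers counting error only and compares 2 libraries. It was computed as if the regions had not been picked for a high ratio, so its 95% coverage is not assured for them. Counts of regions with an interval above 1 below therefore describe read number and ratio together. They are no test of a difference between the libraries. Family members can be near-identical in sequence, and the handling of multiply mapped reads is not stated, so the values of single genes are uncertain.

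The promoters of 6 genes are printed because the results below turn on them. Among single regions, that of Zfp101 had the highest ratio of the family, those of Zfp445 and Zfp33b the most knockout reads, 1 of Zfp451 the most control reads and 1 of Zfp709 the lowest ratio. Zfp26 had 2 regions of unequal ratio. Each run holds 250 bases before and 50 after the RefSeq start site, 5′ to 3′ on the strand of the gene (GRCm38.p6), with CpG dinucleotides in capitals. The runs are not the listed regions. That of Zfp451 lies between its 2 regions and overlaps neither, and that of Zfp445 meets only the edge of its region.

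Zfp101 (chr17:33394588-33394887, minus strand): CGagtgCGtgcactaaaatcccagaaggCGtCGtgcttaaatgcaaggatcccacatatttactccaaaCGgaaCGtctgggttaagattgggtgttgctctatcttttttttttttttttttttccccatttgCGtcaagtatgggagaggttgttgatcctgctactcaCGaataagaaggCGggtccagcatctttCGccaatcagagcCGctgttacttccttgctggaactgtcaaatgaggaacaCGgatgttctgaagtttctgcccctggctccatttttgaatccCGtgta

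Zfp33b (chr5:104571422-104571721, plus strand): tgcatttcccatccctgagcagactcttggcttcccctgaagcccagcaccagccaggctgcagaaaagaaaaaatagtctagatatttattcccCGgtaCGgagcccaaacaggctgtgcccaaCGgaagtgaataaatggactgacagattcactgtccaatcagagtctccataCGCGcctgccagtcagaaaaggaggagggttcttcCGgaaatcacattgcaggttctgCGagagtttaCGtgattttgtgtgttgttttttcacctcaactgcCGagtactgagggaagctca

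Zfp445 (chr9:122865957-122866256, minus strand): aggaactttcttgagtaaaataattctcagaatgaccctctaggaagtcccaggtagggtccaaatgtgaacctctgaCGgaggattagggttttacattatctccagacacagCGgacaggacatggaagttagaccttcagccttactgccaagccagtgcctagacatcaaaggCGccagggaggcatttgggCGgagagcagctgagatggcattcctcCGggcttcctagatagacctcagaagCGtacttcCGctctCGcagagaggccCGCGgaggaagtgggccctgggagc

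Zfp26 (chr9:20460111-20460410, minus strand): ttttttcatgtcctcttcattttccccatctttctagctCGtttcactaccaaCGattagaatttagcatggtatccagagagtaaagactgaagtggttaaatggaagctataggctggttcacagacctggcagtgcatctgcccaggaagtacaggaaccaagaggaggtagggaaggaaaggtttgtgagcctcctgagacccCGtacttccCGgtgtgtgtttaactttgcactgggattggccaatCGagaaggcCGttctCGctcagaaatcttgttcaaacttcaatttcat

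Zfp451 (chr1:33814546-33814845, minus strand): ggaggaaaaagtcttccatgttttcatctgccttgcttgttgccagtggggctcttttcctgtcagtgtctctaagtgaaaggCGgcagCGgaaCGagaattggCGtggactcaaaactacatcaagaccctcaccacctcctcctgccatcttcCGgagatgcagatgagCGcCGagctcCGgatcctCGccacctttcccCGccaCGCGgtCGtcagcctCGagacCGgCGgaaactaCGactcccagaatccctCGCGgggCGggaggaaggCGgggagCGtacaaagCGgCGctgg

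Zfp709 (chr8:71881818-71882117, plus strand): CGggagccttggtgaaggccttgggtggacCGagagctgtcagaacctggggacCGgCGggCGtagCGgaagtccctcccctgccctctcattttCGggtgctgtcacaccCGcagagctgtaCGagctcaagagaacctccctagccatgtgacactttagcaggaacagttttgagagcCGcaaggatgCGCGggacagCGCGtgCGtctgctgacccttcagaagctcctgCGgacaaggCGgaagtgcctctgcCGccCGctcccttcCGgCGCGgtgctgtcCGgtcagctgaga

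CpG dinucleotides numbered 13 in the Zfp101 promoter, 9 at Zfp33b, 10 at Zfp445 and 7 at Zfp26. Zfp451 and Zfp709 had 24 and 23. The RefSeq promoter table matched 48 of the 62 Zfp genes, and these 48 promoters held a median of 14 CpGs (quartiles 9 and 21). Promoters of the 927 other listed genes with an entry held a median of 21 (15 to 28), those of 283 Zfp genes with no listed region 13 (7 to 20), and all 27025 promoters 7 (3 to 21). Listed Zfp promoters thus lay nearer to the Zfp genes outside the table than to the other listed genes. Median GC content was 54.3% in the listed Zfp promoters and also in the Zfp promoters with no listed region, against 60.3% in the other listed genes.

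Short letter motifs were counted on both strands of the same windows. The GC box letters GGGCGG, a motif of Sp and Klf factors, occurred in 20 of 48 listed Zfp promoters (41.7%), against 612 of 927 other listed promoters (66.0%) and 35.9% of all promoters. The letters CCAAT occurred in 25 of 48 (52.1%), against 40.6% of the other listed and 37.9% of all promoters. The Ets letters CCGGAAG occurred in 12 of 48 (25%), against 28.0% of the other listed and 9.12% of all. The YY1 letters AAGATGG occurred in 6 of 48 (12.5%), against 8.63% and 6.48%, and TATAAA in 2 of 48 (4.17%), against 5.39% and 14.2%. The 283 Zfp promoters with no listed region lay near the listed ones, with 44.9% for GGGCGG, 49.1% for CCAAT, 21.2% for CCGGAAG, 7.42% for AAGATGG and 6.01% for TATAAA. A match to letters is a description and does not show a bound factor. The promoter window overlapped a listed region in 32 of the 48 genes.

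Zfp regions held more H3K9me3 reads than the rest of the table in the knockout library. A Zfp region had a median of 9 knockout reads (quartiles 6 and 16) and 2 control reads (1 and 4), against 6 knockout reads (4 and 10) and 2 control reads (1 and 3) in the 1313 other regions. Regions with a single control read made up 19 of 68 Zfp regions (27.9%), against 621 of 1313 others (47.3%). Regions with 5 or more control reads made up 16 of 68 (23.5%), against 142 of 1313 (10.8%). The family was 4.92% of the regions and held 6.90% of the knockout reads and 6.78% of the control reads of the table. Among the 50 regions with the highest knockout level 8 were Zfp regions (16%). By control level the cut at 50 fell among regions tied at 8 reads, which were ordered by gene name. It counted 5 Zfp regions (10%) and left out the tied regions of Zfp846 and Zfp709 (upstream). The top 100 held 10 Zfp regions by knockout level and 12 by control level, with ties ordered in the same way. These counts therefore do not rank the 2 libraries against each other.

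The ratio itself was close to that of the table. Summed over the 68 regions, 845 knockout reads stood against 229 control reads, a ratio of 3.49 (3.02 to 4.06). The other regions gave 3.43 (3.296 to 3.57). The median ratio was 3.12 in Zfp regions, against 2.998 in the others. After adding 1 control read's worth (0.0405 RPM) to both libraries, the median log2 ratio was 1.39 in Zfp regions, against 1.26 in the others and in the whole table.

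**Figure D1:**
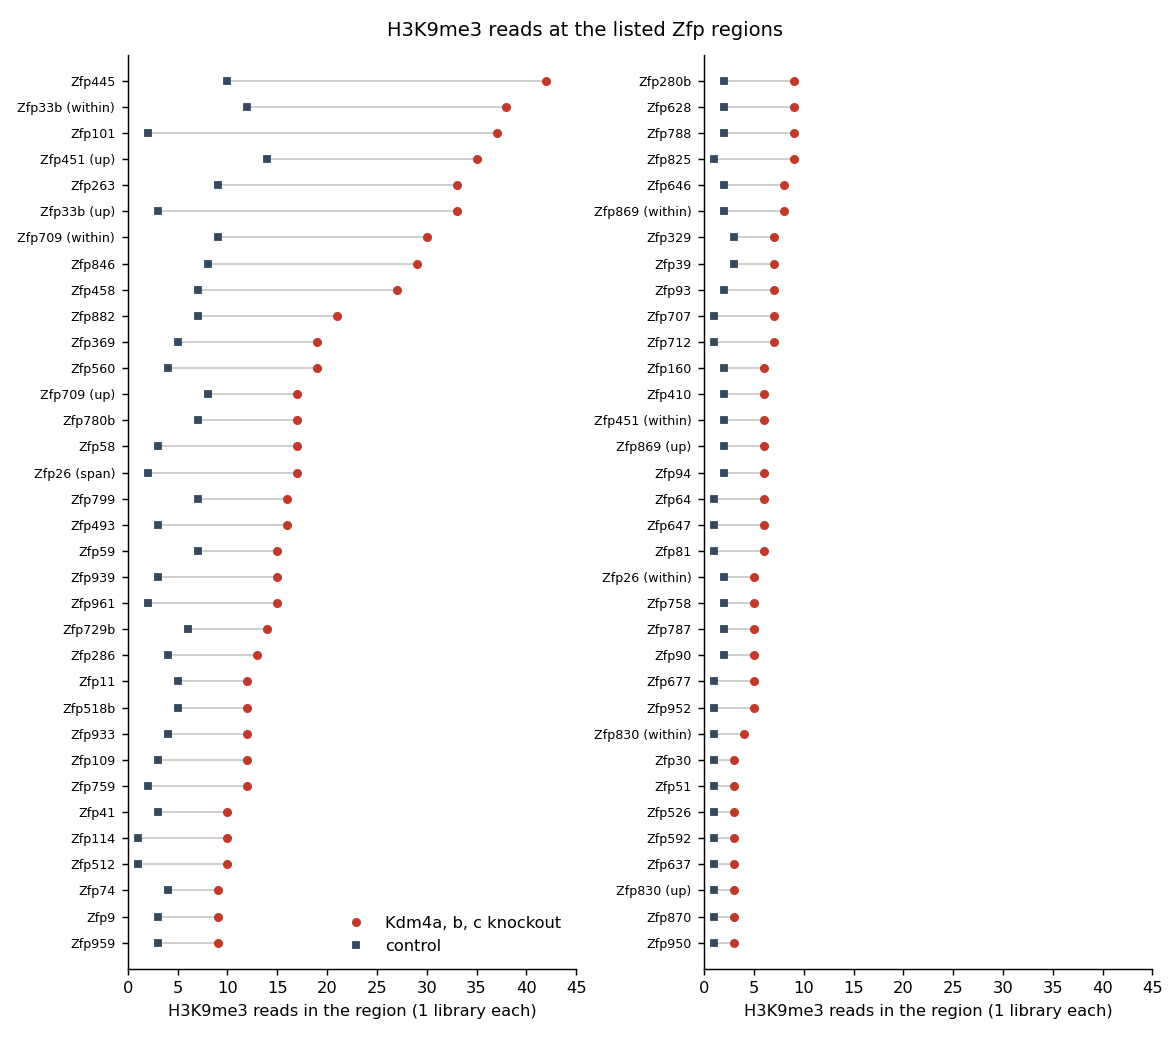
H3K9me3 reads in each of the 68 Zfp regions (horizontal axis) in the knockout (red circles) and control library (dark squares), sorted by knockout reads, with the position given where a gene has 2 regions. Knockout reads run from 3 to 42 and control reads from 1 to 14, and Zfp101 and the upstream Zfp33b region join high knockout counts to 2 and 3 control reads.

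The counting interval lay above 1 for 22 Zfp regions of 21 genes (32.4%), against 21.1% of the whole table (292 of 1381 regions). This share follows the number of reads. Of the 26 Zfp regions with fewer than 10 reads in both libraries together, 0 reached an interval above 1, against 23 of 777 other regions. With 10 to 19 reads 9 of 24 Zfp regions did (37.5%), against 116 of 376 others (30.9%). With 20 or more reads 13 of 18 did (72.2%), against 131 of 160 others (81.9%). Within these classes the shares of Zfp regions were not steadily above those of the others, and 26.5% of Zfp regions, against 12.2% of the others, had 20 or more reads. The joint ratio of Zfp regions in the 3 classes was 3.34, 3.77 and 3.395, against 3.44, 3.34 and 3.52 in the other regions. The interval lay above 2 for Zfp101 and the upstream region of Zfp33b, 2 of 68 regions, against 3.48% of the table.

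**Figure D2:**
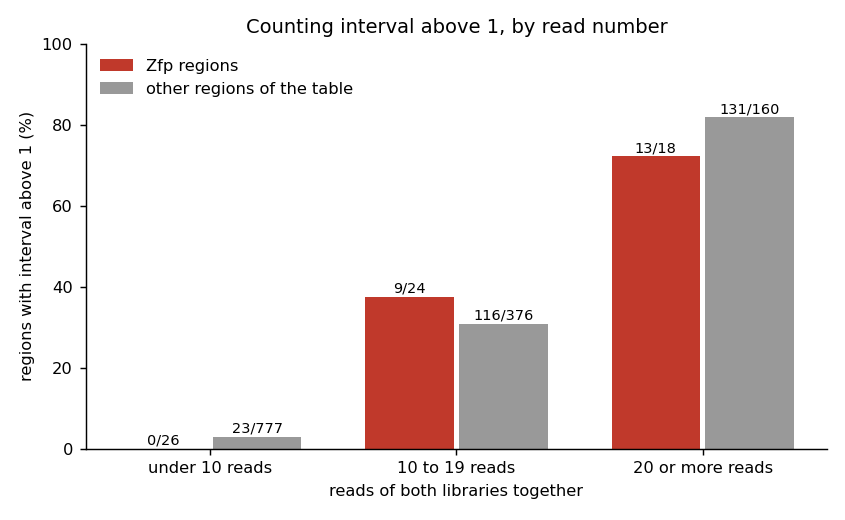
Share of regions (vertical axis, percent) whose 95% counting interval of the ratio lies above 1, by reads of both libraries together, for Zfp regions (red) and the other regions (grey), with counts above the bars. The share climbs from 0 of 26 to 13 of 18 in Zfp regions with the number of reads, and the other regions climb alike.

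Zfp101 had 37 knockout and 2 control reads at chromosome 17, 33394486 to 33394909, a region of 424 bp that spans the start site. Its ratio of 17.5 (4.52 to 150.0) was the highest of the family. Its H3K4me3 height, the authors' own value of the region, was 8.82 RPKM, against a median of 11.3 RPKM over the Zfp regions. By knockout reads Zfp101 was 17th in the whole table, but by control reads it shared place 427.

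Zfp445, whose product helps to keep DNA methylation at imprinted loci, had the most knockout reads of any single Zfp region. It had 42 knockout and 10 control reads at chromosome 9, 122864671 to 122865963, starting just downstream of the start site, a ratio of 3.98 (1.96 to 8.89). Zfp263 had 33 knockout and 9 control reads wholly within the gene, a ratio of 3.47 (1.63 to 8.25). Zfp369, also called NRIF2, had 19 and 5 in a region of 2141 bp, the widest of the family, a ratio of 3.60 (1.299 to 12.3). These genes lay high in both libraries, unlike Zfp101.

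High ratios at few reads came from Zfp512 and Zfp114, each with 10 knockout reads and 1 control read (9.47, 1.35 to 411), and from Zfp825 with 9 and 1 (8.52, 1.18 to 373). Their intervals span more than 2 orders of magnitude. At the other end, Zfp59 had 15 knockout and 7 control reads (2.03, 0.779 to 5.88) and Zfp74 had 9 and 4 (2.13, 0.595 to 9.47). Zfp329 and Zfp39 had 7 and 3 each (2.21, 0.504 to 13.2). Equal levels lay inside the interval of each of these 4. The ratio took the same value of 2.84 in 17 Zfp regions, since few reads allow few ratios, and 8 of them had 3 knockout reads and 1 control read.

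A few members have roles outside silencing of repeats. Zfp451 corresponds to a SUMO ligase of human cells, and its region upstream of the start site had 35 knockout and 14 control reads (2.37, 1.24 to 4.76). Zfp410, an activator of the chromatin remodeller gene Chd4, had 6 and 2 upstream of its start (2.84, 0.508 to 28.8). Zfp830, also called Omcg1 and needed in the early mouse embryo, had 3 and 1 upstream and 4 and 1 within the gene. Values at Zfp410 and Zfp830 are too few for a difference between the libraries to be detectable.

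The 68 regions lay on 16 chromosomes. RefSeq holds 394 protein-coding Zfp genes, of which 62 had a listed region (15.7%, 12.3 to 19.7), against 5.33% of all 21896 protein-coding symbols. Chromosome 7 had the most listed genes, 16 of its 93 Zfp genes (17.2%, 10.2 to 26.4), then chromosome 17 with 10 of 45 (22.2%, 11.2 to 37.1) and chromosome 13 with 8 of 37 (21.6%, 9.83 to 38.2). On chromosomes 2 and 4, each with 27 Zfp genes, 1 gene was listed (3.70%, 0.0937 to 18.97): Zfp64 and Zfp933. None was listed of the 11 on chromosome 18 (up to 28.5%), the 8 on X or the 5 each on chromosomes 3 and 14. These shares are given without a test, because absence from the table can come from a missing H3K4me3 region, a control value of 0 or a ratio of 2 or less.

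Among the 8 chromosomes with at least 3 listed Zfp genes, the joint ratio ran from 2.84 on chromosome 11 (27 knockout and 9 control reads, 1.297 to 6.86) to 4.36 on chromosome 15 (23 and 5 reads, 1.62 to 14.7). On chromosome 7 it was 3.04 (138 and 43 reads, 2.14 to 4.38), on chromosome 8 it was 3.02 (102 and 32 reads, 2.01 to 4.64), and on chromosome 5 it was 3.82 (105 and 26 reads, 2.47 to 6.12). Chromosome 9 gave 4.08 (112 and 26 reads, 2.64 to 6.51), chromosome 13 gave 4.09 (121 and 28 reads, 2.69 to 6.41) and chromosome 17 gave 4.28 (95 and 21 reads, 2.65 to 7.24). All 8 intervals overlapped, but some are wide and overlap is no test, so a difference between chromosomes was not tested. The interval lay above 1 for 6 of 8 regions on chromosome 13 and 4 of 5 on chromosome 9, against 1 of 10 on chromosome 17, 3 of 16 on chromosome 7 and 21.1% of the whole table. Read number moved with these counts: 7 of 8 Zfp regions on chromosome 13 and 4 of 5 on chromosome 9 had 10 or more reads, against 3 of 10 on chromosome 17 and 10 of 16 on chromosome 7.

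Listed Zfp genes were joined into clusters where neighbouring regions lay at most 500 kb apart, which gave 6 clusters of at least 3 genes with 26 regions of 24 genes. Their joint ratio was 3.89 (362 knockout and 88 control reads, 3.08 to 4.97), and that of the 42 regions outside was 3.24 (483 knockout and 141 control reads, 2.68 to 3.94). The intervals overlapped. The counting interval lay above 1 for 13 of the 26 clustered regions and 9 of the 42 others (50% and 21.4%, against 21.1% of the table). Read number differed too. Clustered regions had a median of 13 knockout reads, against 9 outside, and 10 of 26 (38.5%) had 20 or more reads in both libraries together, against 8 of 42 outside (19.05%). The interval lay above 1 for 6 of 6 clustered regions with 10 to 19 reads and 7 of 10 with more, against 3 of 18 and 6 of 8 outside. In the whole table the shares in these read classes were 31.25% and 80.9%. The part of read number in the difference was not tested.

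The cluster on chromosome 13 (67060041 to 67780587) held 6 listed genes of 22 RefSeq Zfp genes in the same stretch. RefSeq gives 4 of the 6 an Rslcan synonym (Zfp759, Zfp458, Zfp58 and Zfp493), a name for the genes near the regulator of sex-limitation locus. Zfp458 had 27 knockout and 7 control reads (3.65, 1.55 to 9.93), Zfp58 had 17 and 3 (5.36, 1.55 to 28.6), Zfp493 had 16 and 3 (5.05, 1.45 to 27.04) and Zfp759 had 12 and 2 (5.68, 1.26 to 52.3). The interval of these 4 lay above 1. Zfp712 had 7 and 1 reads (6.63, 0.851 to 299) and Zfp729b had 14 and 6 (2.21, 0.797 to 7.01). The cluster's joint ratio was 4.002 (93 and 22 reads, 2.49 to 6.69), and 5 of its 6 regions spanned the start site.

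The cluster on chromosome 17 from 32829468 to 33394909 had the highest joint ratio, 5.29 (67 knockout and 12 control reads, 2.84 to 10.7), but Zfp101 held 37 of the knockout reads. Without Zfp101 the ratio was 2.84 (1.35 to 6.51), and that of all of chromosome 17 was 2.89 (1.70 to 5.14). The other members were Zfp799 (16 and 7 reads), Zfp81 (6 and 1), Zfp952 (5 and 1) and Zfp870 (3 and 1). The interval of none of these 4 lay above 1. A second cluster on this chromosome, 21008348 to 21451051, held Zfp160 (6 and 2 reads), Zfp677 (5 and 1) and Zfp51 (3 and 1), with a joint ratio of 3.31 (1.04 to 13.8). All 3 spanned their start sites in regions of 1270 to 1995 bp and had at most 6 knockout reads.

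On chromosome 9 (20384357 to 20582135), Zfp560 had 19 knockout and 4 control reads (4.497, 1.49 to 18.2) and Zfp846 had 29 and 8 (3.43, 1.53 to 8.69). With both regions of Zfp26 the joint ratio was 4.14 (70 and 16 reads, 2.38 to 7.64). On chromosome 8 (71881429 to 71951896), Zfp961 had 15 and 2 reads (7.10, 1.65 to 64.0) and Zfp882 had 21 and 7 (2.84, 1.16 to 7.91). With both regions of Zfp709 the joint ratio was 3.02 (83 and 26 reads, 1.93 to 4.89), the lowest of the 6 clusters, with a median of 7.5 control reads, the highest of the 6. On chromosome 7 (24175036 to 24317069), Zfp114 stood beside Zfp109 with 12 and 3 reads (3.79, 1.02 to 20.9), Zfp93 with 7 and 2 (3.31, 0.631 to 32.7) and Zfp94 with 6 and 2 (2.84, 0.508 to 28.8), and the joint ratio was 4.14 (35 and 8 reads, 1.89 to 10.3).

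**Figure D3:**
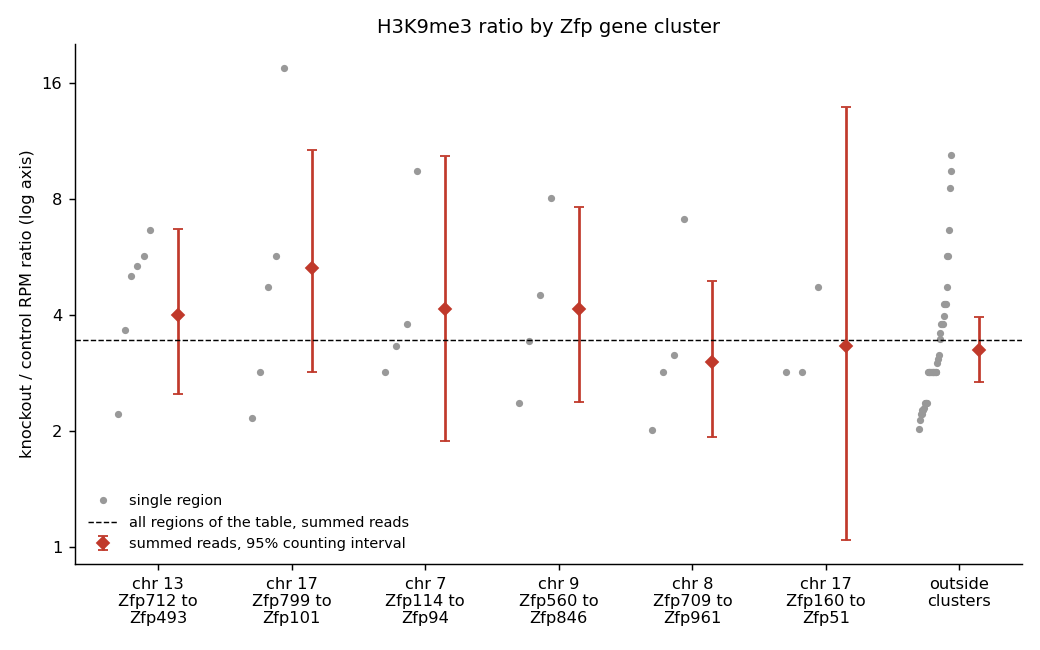
Knockout over control RPM ratio (vertical log axis) in the 6 clusters of at least 3 listed Zfp genes and outside them. Grey dots are single regions, red diamonds the ratio of summed reads with its 95% counting interval, and the dashed line is the whole table at 3.43. The intervals overlap, and a dot at 17.5 (Zfp101) lies far above its cluster.

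RefSeq Zfp genes themselves, joined by the same distance, formed 17 groups of 5 or more genes, and 4 of these had no listed gene. These were 9 genes on chromosome 6 (47815536 to 48621548), 9 on chromosome 7 (42473386 to 43618279), 6 on chromosome 11 (50811085 to 51072799) and 5 on chromosome 9 (22055411 to 22307814). In a group of 16 on chromosome 4 (145510759 to 147849126) 1 was listed, Zfp933, with 12 knockout and 4 control reads (2.84, 0.861 to 12.1). On chromosome 9, by contrast, 3 of 5 genes between 20345136 and 20605404 were listed.

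Zfp regions lay closer to the start site than regions of the table as a whole. The region centre lay a median of 439 bp from the listed start site (quartiles 247 and 625), against 517 bp (339 and 711) in the whole table. The region spanned the start site in 30 of 68 cases (44.1%), against 23.6% of the table. It lay wholly downstream, on the side of the gene, in 23 (33.8%, against 42.9%) and wholly upstream in 15 (22.1%, against 33.5%). Zfp regions were also slightly wider, with a median of 748 bp, against 680 bp in the whole table. The part of width in the share of regions spanning the start site was not tested. Median H3K4me3 height was nearly the same, 11.3 RPKM in Zfp regions and 11.0 RPKM in the whole table.

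Regions spanning the start site had the highest joint ratio, 3.91 (339 knockout and 82 control reads, 3.07 to 5.04), then those wholly downstream with 3.43 (337 and 93 reads, 2.72 to 4.36) and wholly upstream with 2.96 (169 and 54 reads, 2.17 to 4.10). The 3 intervals overlapped, and without Zfp101 the spanning class gave 3.57 (2.78 to 4.63). In the whole table the same classes gave 3.504, 3.35 and 3.48. The interval lay above 1 for 10 of 30 spanning, 10 of 23 downstream and 2 of 15 upstream Zfp regions, against 24.8%, 17.5% and 23.2% of the table. The 2 upstream regions were those of Zfp33b and Zfp451. The order of the classes changed with their definition. Classes by region centre alone divide the spanning regions between upstream and within. The 22 Zfp regions centred upstream then gave 3.56 and the 46 centred within the gene 3.46.

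**Figure D4:**
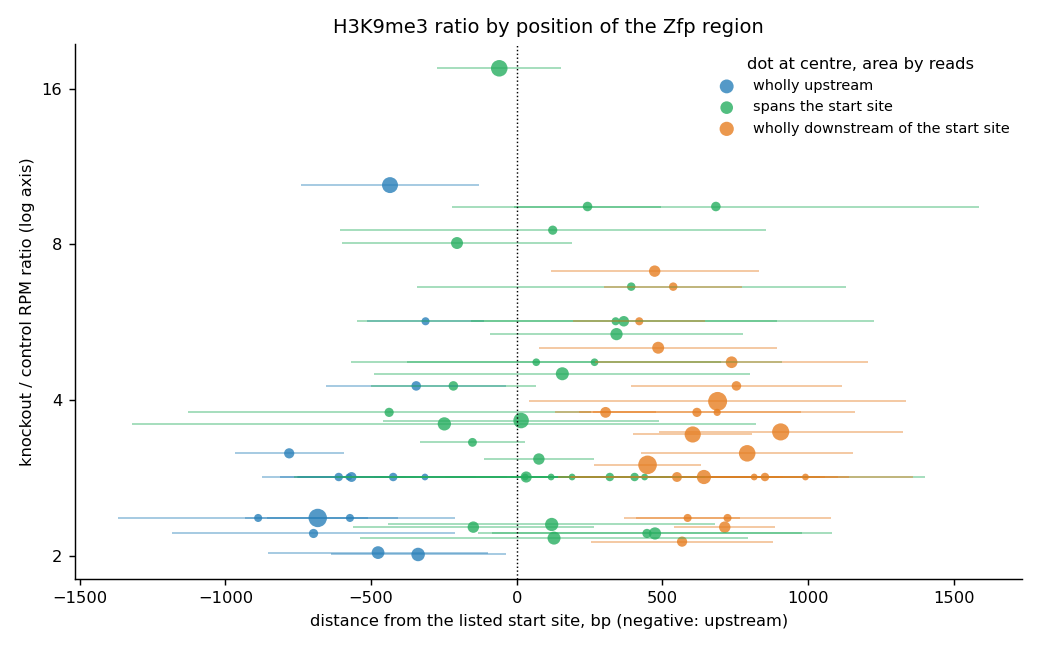
Knockout over control RPM ratio (vertical log axis) against distance from the listed start site in bp (horizontal axis, negative is upstream) for the 68 Zfp regions. Lines show the extent of each region and dots its centre, with the area growing with its reads. Apart from Zfp33b at 10.4, the 15 regions wholly upstream lie at 5.68 or below. Among regions at the start site the single region of Zfp101 reaches 17.5.

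Across regions, which are not independent replicates, knockout reads had a Spearman's rho of -0.010 with width in the 68 Zfp regions and -0.040 in the whole table. Wider regions thus did not hold more reads, and values were not divided by width. For the log2 ratio, rho was -0.11 against H3K4me3 height in Zfp regions (0.079 in the whole table) and 0.094 against width (0.050 in the whole table), all of them weak.

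Of the 62 genes 6 had 2 listed regions (9.68%), against 6.40% of the other genes of the table. In 5 of them (Zfp33b, Zfp451, Zfp709, Zfp830 and Zfp869) 1 region lay wholly upstream and 1 wholly downstream of the start site, with a gap of 395 to 1156 bp between them. In Zfp26 the upstream region spanned the start site, 177 bp from the second. The width of the counting window is not stated, so 2 regions of a gene may share reads.

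At Zfp33b (chromosome 5) the knockout reads were alike in both regions and the control reads were not. The region upstream (104570933 to 104571540) had 33 knockout and 3 control reads, a ratio of 10.4 (3.27 to 53.1). The region downstream (104571936 to 104572305) had 38 and 12, a ratio of 2.998 (1.53 to 6.30). The upstream region ends 131 bp before the start site, so it covers part of the promoter printed above. Both intervals lay above 1 and overlapped each other.

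At Zfp26 the region spanning the start site had 17 knockout and 2 control reads (8.05, 1.91 to 71.8), and the region within the gene had 5 and 2 (2.37, 0.387 to 24.9). The region within the gene had the higher H3K4me3 height, 21.04 RPKM, against 12.7 RPKM at the start site. Zfp709 ran the other way, with 17 and 8 reads upstream (2.01, 0.823 to 5.39) and 30 and 9 within the gene (3.16, 1.46 to 7.56). At Zfp451 both libraries were high upstream (35 and 14 reads) and low within the gene (6 and 2; 2.84, 0.508 to 28.8), with nearly equal ratios. Zfp869 had 6 and 2 reads upstream and 8 and 2 within the gene, ratios of 2.84 and 3.79, and Zfp830 had ratios of 2.84 and 3.79 as well. In all 6 genes the intervals of the 2 regions overlapped. The region nearer to the start site had the higher log2 ratio in 3 of the 6 genes and the higher deposited ratio in 2, because the pseudocount turns the order at Zfp451.

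**Figure D5:**
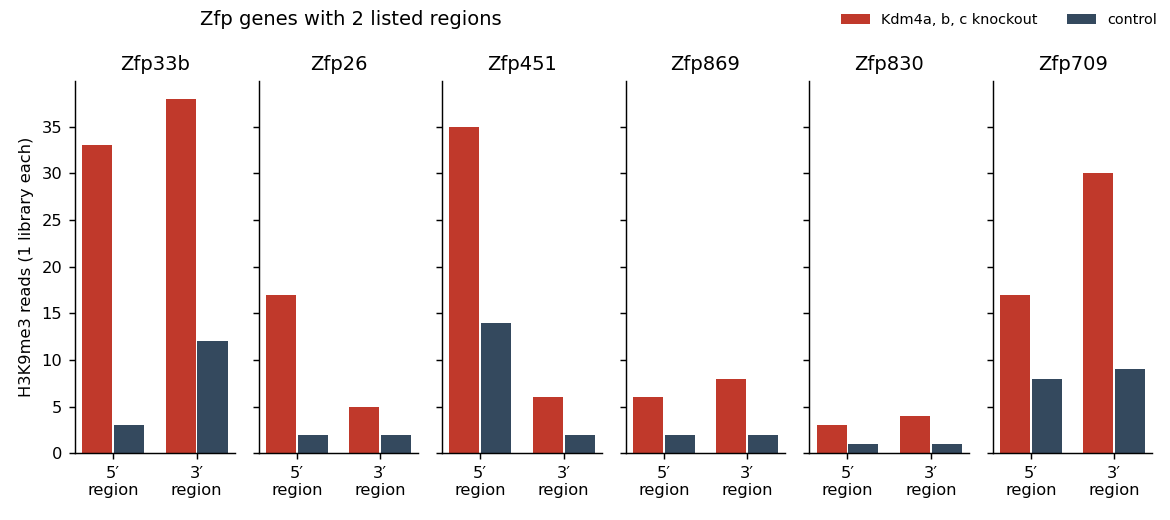
H3K9me3 reads (vertical axis) in the knockout (red) and control library (dark) in the 5′ and the 3′ region of the 6 Zfp genes with 2 listed regions. Zfp33b has 33 and 38 knockout reads in its regions beside 3 and 12 control reads, while Zfp451 and Zfp26 are higher in the 5′ region and Zfp709 in the 3′ region.

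Some regions cannot be given to the Zfp gene alone. The RefSeq start site of another gene lay within 1 kb of 11 Zfp regions of 9 genes and inside 3 of them. The region of Zfp646 (8 knockout and 2 control reads) holds the start of the divergent gene Zfp668, and those of Zfp64 (6 and 1) and Zfp787 (5 and 2) hold starts of Gm39993 and Gm36371. The start of Zfp830 lies 23 bp from that of Cct6b, and that of Zfp758 (5 and 2 reads) 52 bp from that of Zfp944. None of these regions had an interval above 1.

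Other zinc finger families and the silencing machinery were looked up by symbol. Of 41 Zbtb genes 5 had a region (12.2%, 4.08 to 26.2), with 46 knockout and 12 control reads together (3.63, 1.89 to 7.53). Of 27 Zscan and Zkscan genes only Zscan12 did (9 and 4 reads), and of 29 Klf and Sp genes Sp1 (3 and 1) and Sp5 (8 and 1). Of 31 genes of H3K9me3 silencing and its removal, 4 were listed: Atf7ip, Hdac2, Setdb1 and Smarcad1. Their 5 regions held 120 and 27 reads (4.21, 2.75 to 6.65). Atf7ip, the partner of Setdb1, held 77 and 13 of these, and Setdb1 itself 9 and 2. The intervals of all these groups include the joint ratio of the Zfp regions.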

How the data were processed

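The deposited table lists H3K4me3 regions with H3K9me3 values of 2 libraries, 1 per group. Per the submitters' processing notes, reads were processed with Trimmomatic and Bowtie2 on mm10; the sources used here name neither the counting program nor its window. H3K9me3 was deposited by the authors as values read here as RPM, and all values (100.0%) were whole multiples of what 1 read is worth, with a tolerance of 0.01 reads. The ratio was deposited by the authors and equalled the recomputed one to within 1.6e-13. H3K4me3 height was deposited by the authors as RPKM per region. Neither of the 2 libraries is an H3K4me3 library. The regions and heights therefore cannot be tied here to these cells or to either genotype. Region starts were read as counted from 0 and are printed as counted from 1.

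Libraries were grouped by genotype label. Reads were recovered from the steps, and ratios got Clopper-Pearson intervals (SciPy 1.17.1, pandas 2.3.3). Their coverage was checked only on simulated reads deeper than these and drawn without the selection on the ratio. The check therefore does not extend to the listed regions. A region spans the start site where its ends lie on either side of it. All 68 accessions matched the RefSeq table of GRCm38.p6, which has gene bounds only, so exon, intron or UTR is not stated. Lists were matched by symbol. Named genes were the 10 highest and 5 lowest log2 ratios at or above the table's median mean level (1 region per gene), the 10 highest knockout levels, genes with 2 regions and genes of clusters; others were chosen after their values were seen. Members, lists and motifs were chosen with earlier results of these data known. Alternatives were the regions per gene, level and height filters, scaling, pseudocount, interval, classes and cluster gap. Protein sequences were not used here, so genes were not split by KRAB domain.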

Additional observations from a re-analysis of the deposited data

How the results depend on the processing

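No paired analysis was possible because a single library stands for each group, and for the same reason no replicate could be left out. Both libraries were also scaled to equal sums over the table, which holds only ratios above 2. That scaling divides every ratio by 3.43. It moved the joint Zfp ratio of 3.49 to 1.02 and the median log2 ratio of 1.39 to -0.12. The count of 22 regions with an interval above 1 moved to 1, and the share of the whole table under that scaling was not computed. The median log2 ratio was 1.51 in regions at or above the table's median level, 1.28 at or above its median H3K4me3 height, 1.61 with a pseudocount 10 times smaller and 0.83 with one 5 times larger. Of the 36 regions at or above the median height 9 had an interval above 1, against 22 of all 68. The share of the whole table at that height was not computed. A cluster gap of 250 kb left Zfp81 and Zfp101 out of their cluster on chromosome 17 and moved its ratio to 2.52 (1.13 to 6.17). The same gap left no cluster of 3 genes around Zfp160. With 99% intervals 15 regions stayed above 1, against 10.4% of the table. The other 63 recomputed values stayed inside the interval of the reported one, or within 1.5 times a count and 0.1 of a median; some of these left out the gene with the most knockout reads and were chosen after seeing the data. All 86 recomputed log2 ratios of named regions stayed inside their intervals, which are wide. The planned split by KRAB letters was not run. Depth limits single genes: 26 of 68 regions hold fewer than 10 reads.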
